A study of Homo sapiens with 6 samples.

Results

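The genes of the NRF2 antioxidant response, glutathione and thioredoxin metabolism, iron handling and ferroptosis were described in Caki-1 cells with and without VHL. The 39 genes were taken by symbol, from the regulators of the response to its enzymes, the iron genes and the lipid enzymes of ferroptosis, out of 60708 genes in the count table. Of these, 38 had at least 10 reads in any sample and were tested among 17401 genes, and GPX2 had 0 counts in all 6 samples. RNA-seq was run on 3 VC and 3 VHL-KO samples of Caki-1, an established line of human clear cell renal carcinoma. VC cells, the vector control, were wild-type for VHL. VHL-KO cells, described as clonal, carried a lentiviral CRISPR vector with a guide to VHL and were selected with puromycin. Which vector and selection the VC cells of the RNA-seq received, and whether they were clonal, is not stated in the sources used here. A clone can differ from its parent line in ways other than the edit, and the sources used here do not say whether the replicates were separate cultures, so the p-values measure only the spread among these samples. The samples held 31789923, 28463579 and 34881739 counts on genes in VC replicates 1 to 3 and 29139722, 22805385 and 22628246 in VHL-KO replicates 1 to 3. A count of 0 allowed up to 3 counts, or 0.079 CPM in the deepest and 0.141 CPM in the shallowest sample, a limit that covers counting error only.

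NRF2, encoded by NFE2L2, is a transcription factor that KEAP1 holds at low levels by presenting it for degradation. When electrophiles or oxidants modify KEAP1, NRF2 accumulates and raises genes for glutathione synthesis, thioredoxin reduction, NADPH supply and iron storage. Ferroptosis is a form of cell death in which iron-dependent peroxides build up in membrane lipids, and GPX4 reduces these peroxides with glutathione. Clear cell renal carcinoma lines are known for their sensitivity to this death.

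The edited gene and known HIF targets were examined first as a check of the labels. VHL had 42.6, 37.8 and 40.1 CPM (the counts of a gene scaled to a common library size, with TMM factors) in the VC samples and 34.8, 30.5 and 30.5 CPM in the VHL-KO samples. All 3 VHL-KO values lay below all 3 VC values, although an edit of the coding sequence need not lower the mRNA. On the log2 scale the difference was -0.33 with a standard error of 0.11 (adjusted p = 0.0109, edgeR quasi-likelihood test with Benjamini-Hochberg adjustment). It was no longer called without VC replicate 1 (-0.28), without VHL-KO replicate 2 (-0.30), with upper quartile factors (-0.22) or with offsets for GC content and length (-0.03), and was -0.53 with library size alone. CA9, a carbonic anhydrase induced through HIF, had 0, 0 and 2 counts in the VC samples, against 288, 247 and 233 in the VHL-KO samples. NDRG1 had 12.1, 11.1 and 11.7 CPM in VC samples and 729, 774 and 781 CPM in VHL-KO samples. EGLN3, another known HIF target, went the other way and had 69, 41 and 67 counts in the VC samples, against 10, 20 and 19 in the VHL-KO samples. The labels therefore matched CA9 and NDRG1 but not the usual direction of EGLN3.

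Of the markers of renal epithelial origin, PAX8, KRT8 and KRT18 were well measured in every sample, and KRT19 and EPCAM were at low counts. EPCAM had 17, 14 and 4 counts in the VHL-KO samples. PAX8, a renal lineage factor, had 428 ± 38.9 CPM in VC and 614 ± 14.2 CPM in VHL-KO cells (log2 fold change 0.52, or 0.33 with library size alone), whereas the epithelial marker EPCAM had 1.33 ± 0.299 CPM in the former and 0.491 ± 0.263 CPM in the latter (mean ± SD, n = 3 each). The epithelial keratins KRT8 and KRT18 were called higher by 0.51 and 0.37 on the log2 scale, and KRT19, at 0.438 to 0.58 CPM in VC and 0.834 to 1.12 CPM in VHL-KO samples, by 0.96. With the offsets none of the 3 was called (0.07, -0.11 and 0.33), and with library size alone only KRT8 was (0.32, against 0.18 for KRT18 and 0.76 for KRT19). The call of KRT19 was also lost with DESeq2, with the replicate number as a block and with no filter beyond 1 count. The same held without any 1 sample other than VHL-KO replicate 2. VIM, a mesenchymal marker, had 6137 to 6944 CPM in VC and 5866 to 6354 CPM in VHL-KO samples and was not called, but was called lower with library size alone (-0.26) and with the offsets (-0.22). Of 9 markers of leukocytes, endothelium, fibroblasts and erythroid cells, 7 had 4 counts or fewer in each sample, and CD3E and HBB had 0 counts throughout. Together the 9 markers summed to 8.41, 10.9 and 7.8 CPM in VC and 2.7, 2.83 and 3.1 CPM in VHL-KO samples. PDGFRB was the most abundant of them in all 6 samples and was lower in VHL-KO cells (log2 fold change -1.94). Without it, the sums lay between 0.079 and 0.168 CPM in VC and between 0.510 and 0.636 CPM in VHL-KO samples, where PECAM1, with 14, 7 and 9 counts, held most of it. The part of these differences in the results was not tested.

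Among the 38 tested genes, 17 were higher and 14 were lower in VHL-KO cells at an adjusted p under 0.05. Across all tested genes, 28.5% were called higher and 31.2% lower, so changes in both directions were common in this comparison. At least 2-fold changes were called for 7 of the 38 genes, against 26.2% of all tested genes, and these were SOD2, GPX3, AKR1C1, FTH1, FTL and GPX4 upward and PRDX3 downward. The values of the groups did not overlap for 30 of the 38 genes, against 64.7% of all tested genes. The median log2 fold change was -0.0002 for the 38 genes and -0.01 for all tested genes, and the former was 0.11 under upper quartile scaling and -0.19 when only library size was used. Since these are bulk samples, a change in the share of cells that express a gene and a change in RNA per cell cannot be told apart.

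**Figure D1:**
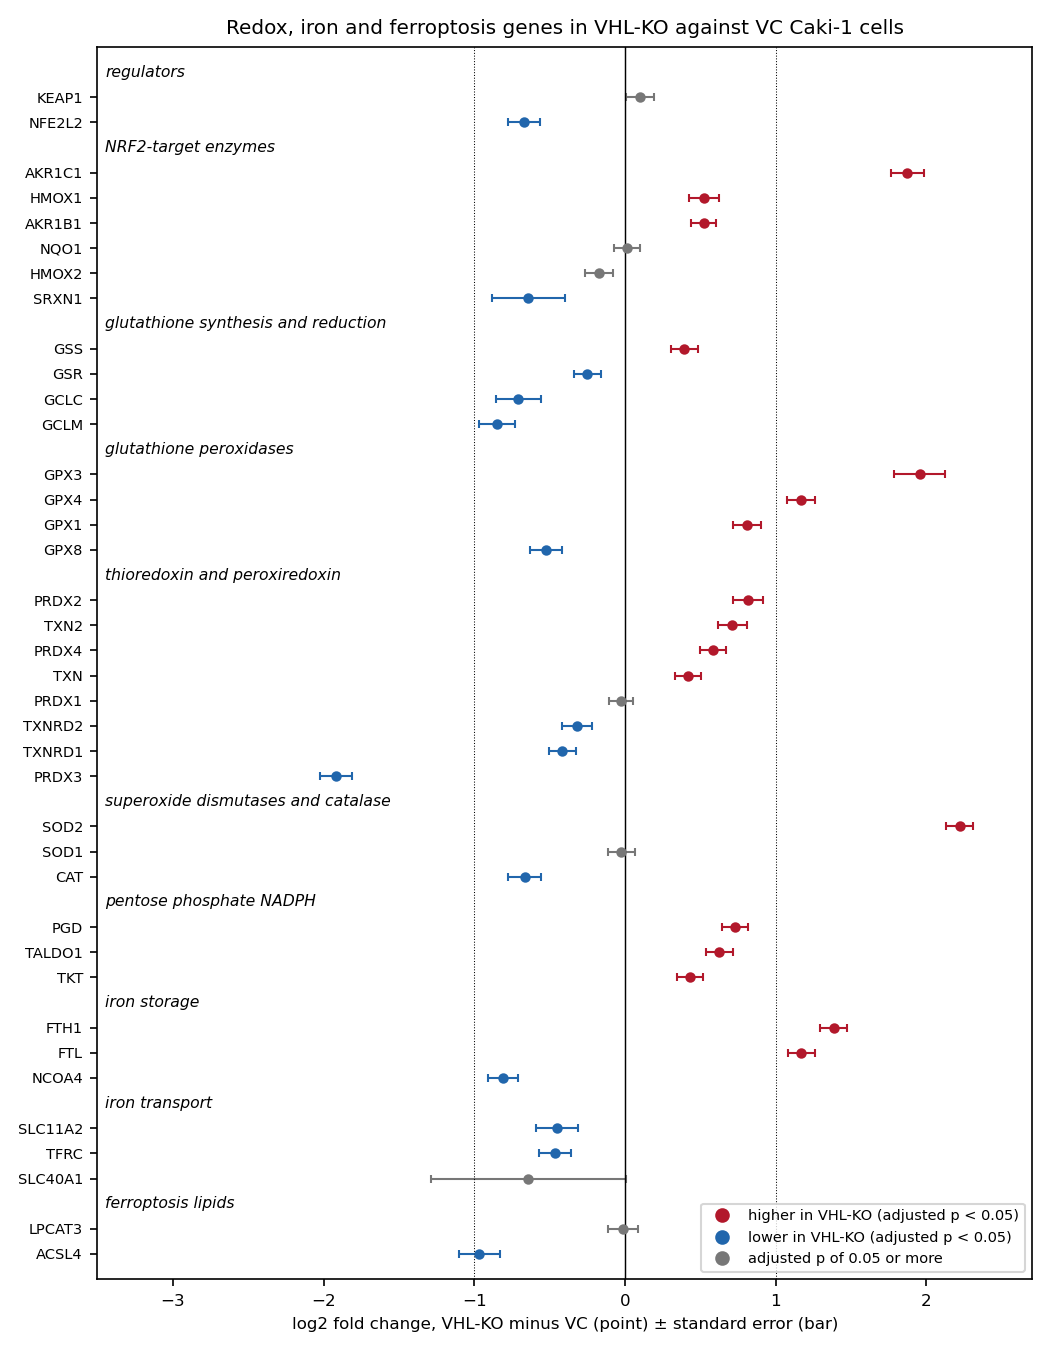
Log2 fold change of the 38 tested genes (horizontal axis, VHL-KO minus VC, 3 samples each), grouped by role, with the standard error as a bar and 2-fold changes marked by dotted lines. SOD2 lies farthest to the right at 2.22 and PRDX3 farthest to the left at -1.92, and most roles hold points on both sides of 0.

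Calls in both directions changed with the scaling and with joint offsets for GC content and length. TMM factors put 47.7% of all calls on the higher side, library size alone put 35.8% there, and the median of all tested genes moved from -0.01 to -0.20, whereas with upper quartile factors it was 0.10. Of the 38 genes, 17 were called higher under each of these scalings, and 14 were called lower with TMM factors, 18 when only library size was used and 11 under upper quartile scaling. Log2 fold changes rose with the GC content of the transcript (Spearman's rho 0.54 across the 38 genes and 0.41 across 13147 genes of at least 1 CPM) and fell with its length (-0.45 and -0.28), a description across genes, which share libraries and are not independent. The 17 genes called higher had a median GC content of 55.6% and a median transcript length of 1336 bases, against 42.9% and 3596 bases for the 14 called lower. Deviations of single samples from their group's mean followed GC content in VC replicates 2 and 3, with slopes of 0.159 and -0.153 (log2 per 10 percentage points), and hardly in VC replicate 1 (-0.006) or VHL-KO replicates 1 to 3 (0.008, -0.014 and 0.005), against 0.413 between the groups. With offsets in each library for GC content and length, which also remove biological change that follows these properties, 15 of the 17 higher calls and 8 of the 14 lower calls were made again in the same direction. Where the offsets ended a call, turned a direction or moved a log2 fold change by more than 1.5 times, their value is given beside the gene, and the separate parts of GC content and length in these results were not tested.

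**Figure D2:**
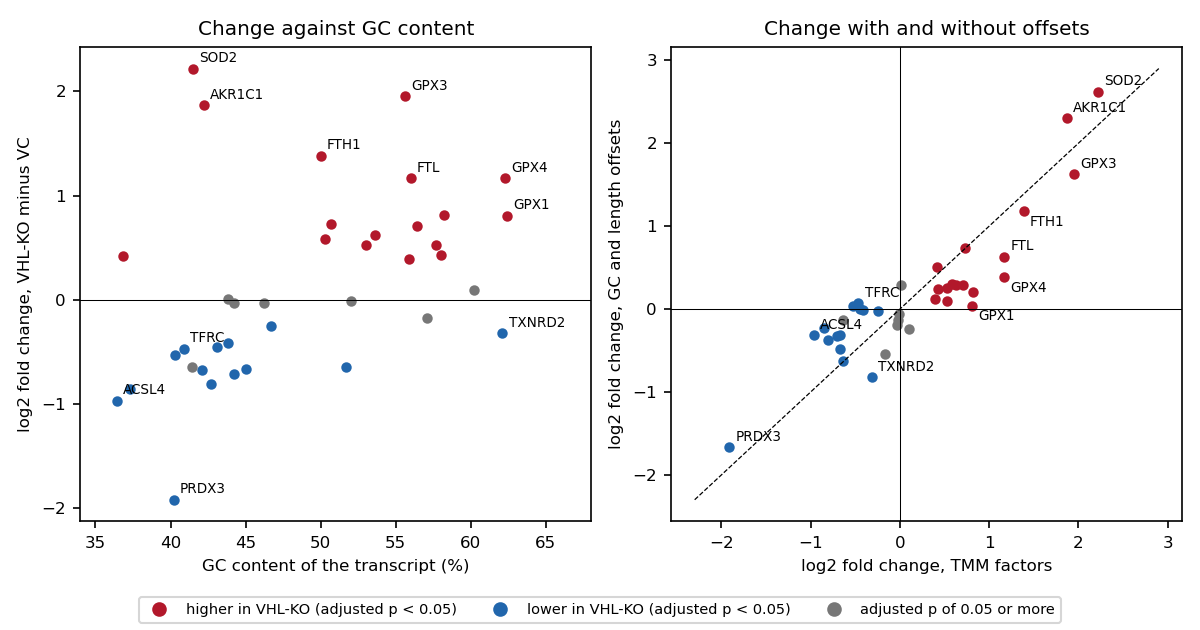
Left, log2 fold change of the 38 tested genes (VHL-KO minus VC) against the GC content of their transcripts in percent. Right, log2 fold change with GC and length offsets against that with TMM factors alone, with a dashed line where both are equal, on or next to which PGD lies (0.73 and 0.73) and from which GPX1 lies apart (0.81 and 0.04).

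The regulators were measured at moderate levels. NFE2L2 had 72.2, 61.4 and 80.0 CPM in VC samples and 43.2, 43.98 and 47.2 CPM in VHL-KO samples. All VHL-KO values were below all VC values, and the fall of 0.67 on the log2 scale (standard error 0.11) passed the test (adjusted p = 7.47e-06, edgeR quasi-likelihood test with Benjamini-Hochberg adjustment). With offsets for GC content and length the value was -0.31, and 38.4% of the exonic bases of NFE2L2 overlap other annotated genes. KEAP1 had 88.9, 102 and 87.5 CPM in VC samples and 104, 97.0 and 97.6 CPM in VHL-KO samples. These values overlapped between the groups (log2 fold change 0.10, adjusted p = 0.374 by the same edgeR test), while KEAP1 was called higher without VC replicate 2 (0.19), called lower with the offsets (-0.24) and at -0.09, not called, with library size alone. NFE2L2 counts per KEAP1 count lay between 0.599 and 0.915 in VC and between 0.415 and 0.484 in VHL-KO samples, without overlap. This ratio sets a transcript of 42.1% GC against 1 of 60.2% GC, and with the offsets both genes were called lower by similar amounts (-0.31 and -0.24).

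The best-known binding site of NRF2 is the antioxidant response element, and its core was searched because several of the genes are textbook NRF2 targets. The core TGACNNNGC was looked for on both strands in the 250 bases upstream of each start in the RefSeq promoters of GRCh38.p14, in which 32 of the 39 genes had an entry. It was found in 5 of these 32 (15.6%), against 11.0% of 27305 promoters, namely KEAP1, GCLM, GPX2, TXNRD1 and PGD. The windows of the genes whose mRNA was measured are shown because the calls of these genes differed, with the core or its reverse complement in capitals.
KEAP1, chr19:10502809-10502833, minus strand: ttttattgTGACACGGCgggcgccc
KEAP1, chr19:10502786-10502810, minus strand: ccggctctGCTTAGTCAtggtgacc
GCLM, chr1:93909448-93909472, minus strand: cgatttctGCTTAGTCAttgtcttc
TXNRD1, chr12:104286922-104286946, plus strand: ggatttctGCTTTGTCAttctgact
PGD, chr1:10398855-10398879, plus strand: tcgccgggGCAATGTCAtctaggtg
Of the 4 genes, GCLM and TXNRD1 were called lower, PGD was called higher and KEAP1 was not called. With the offsets only PGD kept its call (0.73), GCLM (-0.23) and TXNRD1 (-0.01) were not called, and KEAP1 was called lower (-0.24). The hypoxia response core ACGTG was found in 8 of the 32 promoters (25.0%) against 18.3% of all promoters, and the E-box CACGTG, which contains it, in 3 of the 32 (9.38%) against 6.28%. A match is a description of these letters and does not show that a factor binds there. Nor does the lack of a match show that a gene has no such element, since sequence beyond the 250 bases was not searched. The genes without an entry were HMOX1, GSS, GSR, TXN2, PRDX1, SOD1 and FTH1.

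Enzymes counted among the NRF2 targets did not move together. Of 6 tested genes, which here include the constitutive heme oxygenase HMOX2, 3 were higher, 1 was lower and 2 were not called. AKR1B1, an aldose reductase, had 3261, 3375 and 2926 CPM in VC samples and 4761, 4531 and 4456 CPM in VHL-KO samples. Its 3 VHL-KO values were all above the VC values, with a log2 fold change of 0.52 (standard error 0.08) that was 0.26 with the offsets and 0.33 with library size alone. AKR1C1, which reduces steroids and lipid aldehydes, had 20.2, 20.6 and 17.3 CPM in VC samples and 68.1, 76.5 and 68.1 CPM in VHL-KO samples. The groups were far apart, with a log2 fold change of 1.87 (with standard error 0.11 and adjusted p = 5.08e-13 by the edgeR quasi-likelihood test with Benjamini-Hochberg adjustment), or 2.30 with the offsets. Because AKR1C1 has close paralogs between which uniquely mapped reads can be lost or misplaced, AKR1C1, AKR1C2 and AKR1C3 were also summed. The sum lay between 153 and 164 CPM in VC and between 348 and 382 CPM in VHL-KO samples, again without overlap. Most of it was AKR1C3, with means of 137 CPM in VC and 289 CPM in VHL-KO cells, so the sum says little about AKR1C1 itself.

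NQO1, a quinone reductase and a common readout of NRF2, lay between 671 and 699 CPM in VC samples and between 638 and 736 CPM in VHL-KO samples, with overlap. Its log2 fold change was 0.01 and did not pass the test, although it was 0.29 and called higher with the offsets and -0.18 and called lower with library size alone. HMOX1, the inducible heme oxygenase that frees iron from heme, rose by 0.52 with TMM factors, from 92.6 to 117 CPM in VC samples to 143 to 154 CPM in VHL-KO samples, but it was 0.33 with library size alone and its value of 0.10 with the offsets was not called. HMOX2, with 126 to 153 CPM in VC and 119 to 129 CPM in VHL-KO samples, had a log2 fold change of -0.17 and was not called, whereas it was called lower without VC replicate 3 (-0.23), with library size alone (-0.36) and with the offsets (-0.55). The difference was smaller, and not called, without VC replicate 2 (-0.09) and with upper quartile factors (-0.06). SRXN1, which repairs oxidized peroxiredoxins, had 112, 149 and 140 counts in the VC samples, against 47, 72 and 56 in the VHL-KO samples, and was called lower (log2 fold change -0.64, standard error 0.24). Its normalized values overlapped between the groups, the call was lost without VC replicate 2 (-0.43) or VHL-KO replicate 1 (-0.41) and with DESeq2 or upper quartile factors, and 90.7% of its exonic bases overlap another annotated gene.

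Glutathione is made by the GCLC and GCLM subunits of glutamate-cysteine ligase and by GSS, and GSR returns its oxidized form to the reduced one. Of these 4 genes, GSS was higher and the other 3 were lower in VHL-KO cells. GSS had 161, 170 and 140 CPM in VC samples and 212, 201 and 207 CPM in VHL-KO samples. All VHL-KO values exceeded all VC values, by a log2 fold change of 0.39 (standard error 0.09), which remained called at 0.20 with library size alone and at 0.12 under the offsets. GCLC lay between 12.7 and 17.1 CPM in VC and between 8.84 and 9.01 CPM in VHL-KO samples, and GCLM between 29.7 and 34.03 and between 15.8 and 18.3 CPM. GCLC fell by 0.71 and GCLM fell by 0.85 on the log2 scale, with standard errors of 0.15 and 0.12 and no overlap between the groups. With the offsets their log2 fold changes were -0.32 and -0.23, and the second was no longer called (adjusted p = 0.0552, edgeR quasi-likelihood test with Benjamini-Hochberg adjustment). GCLM counts per GCLC count lay between 1.99 and 2.39 in VC and between 1.76 and 2.04 in VHL-KO samples, with overlap, so that the ratio of the subunit mRNAs was not separated. GSR, at 118 to 131 CPM in VC and 101 to 106 CPM in VHL-KO samples, had a log2 fold change of -0.25 (standard error 0.09) and of -0.44 with library size alone. Its call was lost when any 1 sample other than VC replicate 2 was left out (log2 fold changes between -0.27 and -0.18), with upper quartile factors (-0.14) and with the offsets (-0.02).

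Glutathione peroxidases reduce peroxides at the expense of glutathione, and 3 of the 4 tested genes rose while GPX8 fell. GPX1, GPX3 and GPX4, like the thioredoxin reductases, carry selenocysteine, which is encoded by an in-frame TGA that would otherwise end translation. The TGA codons and the bases around them in the canonical GENCODE release 44 transcripts on GRCh38 are shown because they set these genes apart from GPX8, in which none was found, with the codon in capitals.
GPX1, codon 49, chr3:49358120-49358146, minus strand: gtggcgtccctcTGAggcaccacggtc
GPX3, codon 73, chr5:151025457-151025483, plus strand: gtggccagctacTGAggcctgacgggc
GPX4, codon 73, chr19:1105391-1105417, plus strand: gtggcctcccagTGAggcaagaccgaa
TXNRD1, codon 648, chr12:104348401-104348427, plus strand: caggctggctgcTGAggttaagcccca
TXNRD2, codon 523, chr22:19877099-19877125, minus strand: gtgacaggctgcTGAgggtaagcgcca
The 3 peroxidases of this list were called higher and the 2 reductases lower with TMM factors, and with the offsets GPX1 (0.04) and TXNRD1 (-0.01) were not called.

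GPX4, the peroxidase of membrane lipid peroxides, had 326, 366 and 300 CPM in VC samples and 784, 758 and 684 CPM in VHL-KO samples. The lowest VHL-KO value was well above the highest VC value, and the log2 fold change of 1.17 (standard error 0.09) passed the test (adjusted p = 1.13e-10 by the edgeR quasi-likelihood test with Benjamini-Hochberg adjustment). With the offsets it was 0.38 and still called. The GPX4 transcript has a GC content of 62.3% and a length of 851 bases. GPX3, the secreted peroxidase of plasma, was at a low level, with 133, 110 and 114 counts in the VC samples, against 411, 268 and 281 in the VHL-KO samples. This was 3.90, 3.70 and 3.00 CPM against 15.4, 12.4 and 13.2 CPM, without overlap (log2 fold change 1.95, standard error 0.17, and 1.63 with the offsets). GPX1, a cytosolic peroxidase, lay between 232 and 288 CPM in VC and between 434 and 447 CPM in VHL-KO samples. It rose by 0.81 and GPX8, a peroxidase of the endoplasmic reticulum, fell by 0.52. Neither was called with the offsets, where GPX1 had a log2 fold change of 0.04 and GPX8 of 0.03, the latter in the opposite direction. Their GC contents were 62.4% and 40.3%, and 39.9% of the exonic bases of GPX1 overlap another annotated gene.

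Thioredoxins and peroxiredoxins form the second main route for the removal of peroxides, with 4 of 8 genes higher, 3 lower and 1 not called. PRDX1, the cytosolic peroxiredoxin, which shares 29.8% of its exonic bases with MMACHC, had 1574, 1537 and 1526 CPM in VC samples and 1574, 1502 and 1469 CPM in VHL-KO samples. These values overlapped, and the log2 fold change of -0.03 (standard error 0.08) was not called, although it was -0.22 and called with library size alone, -0.19 and called with the offsets, and 0.08, not called, with upper quartile factors. PRDX3, the peroxiredoxin of mitochondria, had 111, 119 and 140 CPM in VC samples and 29.3, 34.4 and 34.4 CPM in VHL-KO samples. The VHL-KO values were all far below the VC values, a log2 fold change of -1.92 (with standard error 0.11 and adjusted p = 2.41e-13 by the edgeR quasi-likelihood test with Benjamini-Hochberg adjustment), or -1.66 with the offsets. PRDX2 (log2 fold change 0.82) and PRDX4 of the endoplasmic reticulum (0.58) were higher, and with the offsets their values were 0.20 and 0.30. The electron donors TXN, in the cytosol, and TXN2, in mitochondria, rose by 0.42 and 0.71. With library size alone TXN rose by 0.22, and with the offsets TXN2 rose by 0.29, all of these still called. In CPM, TXN lay between 335 and 345 in VC and between 433 and 494 in VHL-KO samples, TXN2 between 64.6 and 76.0 and between 108 and 126. The reductases fell, TXNRD1 of the cytosol by 0.42 and TXNRD2 of mitochondria by 0.32 on the log2 scale. With the offsets TXNRD1 was at -0.01 and not called and TXNRD2 at -0.82, while TXNRD2 was -0.51 with library size alone and not called with upper quartile factors (-0.21). Of the genes for mitochondrial proteins in this role, the mRNA of TXN2 was therefore higher, while those of PRDX3 and TXNRD2 were lower, with TMM factors.

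Superoxide dismutases turn superoxide into hydrogen peroxide, which catalase breaks down. Of these 3 genes, SOD2 was higher, CAT was lower and SOD1 was not called. SOD1, the cytosolic enzyme, had 429, 415 and 385 CPM in VC samples and 427, 422 and 360 CPM in VHL-KO samples. The groups overlapped, with a log2 fold change of -0.03 that was -0.22 and called with library size alone and, not called, 0.09 with upper quartile factors and -0.13 with the offsets. SOD2, the enzyme of mitochondria, had 114, 114 and 128 CPM in VC samples and 529, 559 and 573 CPM in VHL-KO samples. The VHL-KO values stood far above the VC values, and this was the largest log2 fold change of the 38 genes with TMM factors (2.22, standard error 0.09, adjusted p = 6.22e-16 by the edgeR quasi-likelihood test with Benjamini-Hochberg adjustment), or 2.62 with the offsets. The offset value of SOD2 rests on a gene model of another identifier, matched by symbol, whose canonical transcript has 14167 bases. CAT lay between 43.4 and 50.2 CPM in VC and between 26.4 and 31.1 CPM in VHL-KO samples and fell by 0.67 (standard error 0.11).

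**Figure D3:**
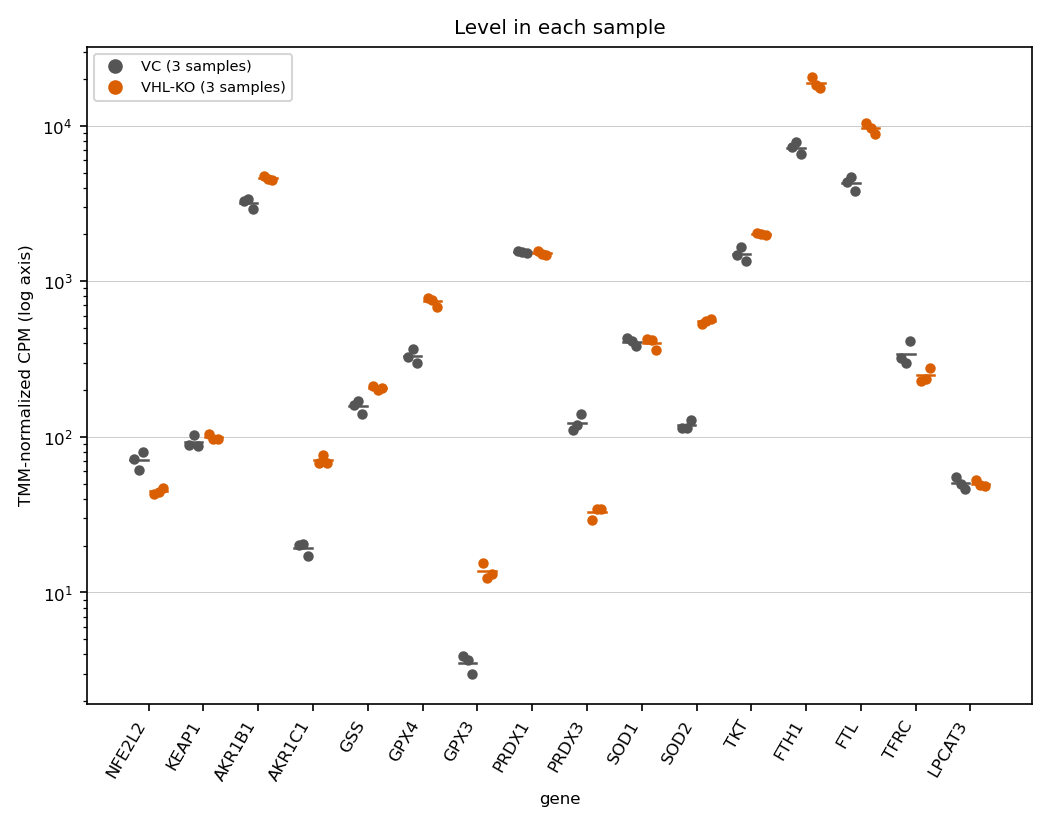
TMM-normalized CPM on a log axis in each of 3 VC and 3 VHL-KO samples (points), with the mean of each group as a line, for NFE2L2, KEAP1, the gene of each role with the highest mean CPM and the genes with a called change of at least 2-fold. The groups lie apart for SOD2 (114 to 128 against 529 to 573 CPM) and PRDX3 (111 to 140 against 29.3 to 34.4 CPM) and overlap for KEAP1, PRDX1, SOD1 and LPCAT3.

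The pentose phosphate pathway supplies NADPH, the reducing power that glutathione and thioredoxin reductases use. All 3 of its genes examined here were higher in VHL-KO cells, with log2 fold changes of 0.73 for PGD, 0.63 for TALDO1 and 0.43 for TKT. PGD lay between 298 and 342 CPM in VC and between 525 and 533 CPM in VHL-KO samples, and TALDO1 between 303 and 367 and between 483 and 513 CPM. TKT, the transketolase, had 1480, 1661 and 1347 CPM in VC samples and 2056, 2004 and 1985 CPM in VHL-KO samples. Each VHL-KO value was above each VC value, and the same held for PGD and TALDO1 (adjusted p between 8.94e-08 and 0.000163 for the 3 genes, edgeR quasi-likelihood test with Benjamini-Hochberg adjustment). TKT was at 0.24 both under library size alone and with the offsets, where TALDO1 was at 0.29, and these values were still called.

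Ferritin stores iron in a shell of heavy chains, encoded by FTH1, which oxidize iron, and light chains, encoded by FTL. Its translation and the stability of the transferrin receptor mRNA are set by iron-responsive elements, hairpins to which iron regulatory proteins bind. Such hairpins were searched in the UTRs of the canonical transcripts as an unpaired C, a stem that pairs at every base, with G-T pairs allowed, and the loop CAGTGN without G as its last base. No match was found in NCOA4 or SLC11A2. A hairpin with an unpaired base in its stem, or in another transcript of a gene, was outside this search. A gene without a match can therefore still carry such an element. The matches are shown because they join the ferritin genes to the iron transport genes TFRC and SLC40A1 in 1 control system, with the loop in capitals and coordinates on GRCh38.
FTH1, 5′ UTR, chr11:61967576-61967599, minus strand: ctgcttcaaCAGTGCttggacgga
FTL, 5′ UTR, chr19:48965338-48965361, plus strand: ttgcttcaaCAGTGTttggacgga
SLC40A1, 5′ UTR, chr2:189580663-189580686, minus strand: cttcagctaCAGTGTtagctaagt
TFRC, 3′ UTR, chr3:196050981-196051004, minus strand: tatcggaagCAGTGCcttccataa
TFRC, 3′ UTR, chr3:196050577-196050600, minus strand: tatcgggagCAGTGTcttccataa
TFRC, 3′ UTR, chr3:196050512-196050535, minus strand: tatcggagaCAGTGAtctccatat
TFRC, 3′ UTR, chr3:196050465-196050488, minus strand: tatcgggaaCAGTGTttcccataa
A match of this kind was present in 0.0566% of 19441 5′ UTRs and 0.501% of 19550 3′ UTRs of protein-coding genes. Since iron regulatory proteins act on ferritin largely at translation, the mRNA levels given here do not measure ferritin protein.

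FTH1 had 248018, 232539 and 250565 counts in VC samples and 550831, 397037 and 375176 counts in VHL-KO samples, which was 7264, 7826 and 6600 CPM against 20620, 18400 and 17600 CPM. Every VHL-KO value was more than any VC value, and the mean rose from 7230 ± 614 to 18870 ± 1570 CPM (mean ± SD, n = 3 each). This made a log2 fold change of 1.38 (standard error 0.09) that passed the test (adjusted p = 2.04e-12 by the edgeR quasi-likelihood test with Benjamini-Hochberg adjustment), or 1.18 with the offsets. FTL had 4356, 4715 and 3808 CPM in VC samples and 10480, 9604 and 8910 CPM in VHL-KO samples. These groups did not overlap either, with a log2 fold change of 1.17 (standard error 0.09) and of 0.63 with the offsets, called in both. By counts, not corrected for length, FTH1 ranked 7, 3 and 9 among all genes in VC replicates 1 to 3, behind MT-CO1 in first place, and was the first-ranked gene in each VHL-KO sample. FTL ranked 14, 14 and 16 in VC samples and 8 in each VHL-KO sample.

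The ferritin genes together took 1.25%, 1.31% and 1.13% of all counts in VC samples and 2.85%, 2.65% and 2.50% in VHL-KO samples. FTH1 rose more than FTL, and FTH1 counts per FTL count lay between 1.66 and 1.73 in VC and between 1.916 and 1.975 in VHL-KO samples, without overlap. The 25 annotated pseudogenes of FTH1 held at most 0.364% as many counts as FTH1 itself in any sample, and the 16 of FTL at most 0.370% as many as FTL. Exons of BEST1 overlap 63.2% of the exonic bases of FTH1. Normalized to transcript length, the mean level was 6010 CPM per kb for FTH1 and 4929 for FTL in VC and 15690 and 11090 in VHL-KO cells. NCOA4, the receptor that delivers ferritin to lysosomes so that its iron is released, fell by 0.81 (standard error 0.10), from 111 ± 11.8 to 63.5 ± 4.65 CPM (mean ± SD, n = 3 each), and its log2 fold change was -0.37 with the offsets. Of the 3 storage genes, the ferritin chains were thus higher and the receptor for ferritin breakdown was lower, in every VHL-KO sample.

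**Figure D4:**
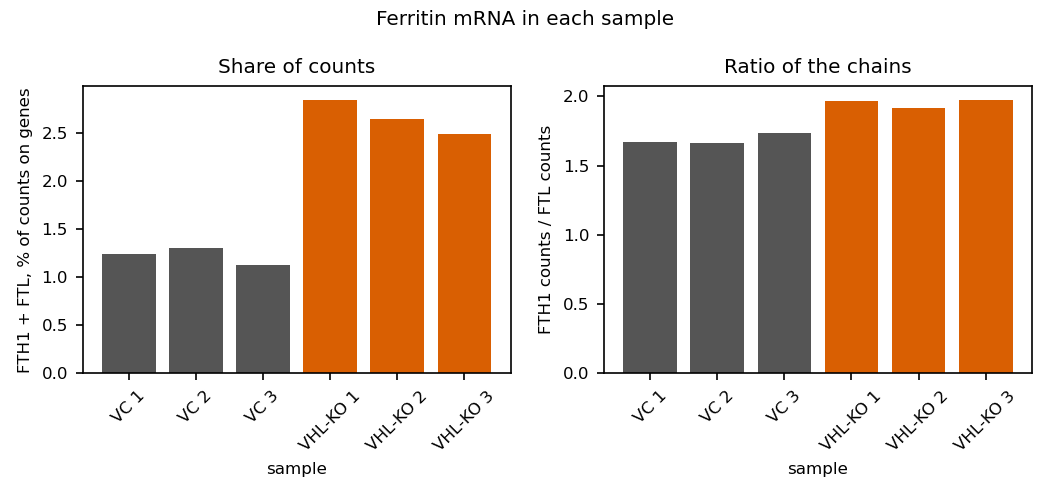
Share of all counts on genes taken by FTH1 and FTL together, in percent (left), and FTH1 counts divided by FTL counts (right), in each of 3 VC and 3 VHL-KO samples. The share lay between 1.13% and 1.31% in VC and between 2.50% and 2.85% in VHL-KO samples.

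Iron enters the cell through the transferrin receptor TFRC and leaves the endosome through SLC11A2, and SLC40A1 (ferroportin) exports it. Of these 3 genes, TFRC and SLC11A2 were lower and SLC40A1 was not called. TFRC had 319, 298 and 412 CPM in VC samples and 230, 237 and 279 CPM in VHL-KO samples. The highest VHL-KO value was just under the lowest VC value, and VC replicate 3 stood above the other samples. TFRC thus fell by 0.47 on the log2 scale with a standard error of 0.11 (adjusted p = 0.000655 by the edgeR quasi-likelihood test with Benjamini-Hochberg adjustment). Its log2 fold change was -0.30 without VC replicate 3 and, in the opposite direction and not called, 0.07 with the offsets. SLC11A2, at 25.4 to 33.1 CPM in VC and 17.1 to 25.2 CPM in VHL-KO samples, had a log2 fold change of -0.45 (standard error 0.14), which was not called without VHL-KO replicate 2 (-0.31) or with the offsets (-0.002). SLC40A1 had 16, 8 and 22 counts in VC samples and 11, 1 and 8 counts in VHL-KO samples, overlapping values at which a difference was not detectable at this depth (log2 fold change -0.64, standard error 0.65, or -0.13 with the offsets). With 1 sample left out, the log2 fold change of SLC40A1 lay between -1.06 and -0.17. FTH1 counts per TFRC count lay between 16 and 26.3 in VC and between 63.2 and 89.7 in VHL-KO samples, without overlap. The transcripts differ in GC content (50.0% and 40.9%) and length, and with the offsets only FTH1 was called (1.18, against 0.07 for TFRC).

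ACSL4 loads polyunsaturated fatty acids onto coenzyme A and LPCAT3 puts them into phospholipids, the substrates of ferroptotic peroxidation. ACSL4 was lower and LPCAT3 was not called. LPCAT3, which shares 66.0% of its exonic bases with EMG1, had 54.9, 50.0 and 46.5 CPM in VC samples and 52.5, 48.8 and 48.6 CPM in VHL-KO samples. The groups overlapped, with a log2 fold change of -0.01 (standard error 0.10). It was 0.10 with upper quartile factors, -0.21 with library size alone and -0.06 with the offsets, not called in any of these. ACSL4 had 35.7, 30.6 and 47.5 CPM in VC samples and 19.5, 19.2 and 19.6 CPM in VHL-KO samples without overlap, a log2 fold change of -0.97 (standard error 0.14) and of -0.31 with the offsets, called in both. Its transcript had the lowest GC content of the 39 genes, 36.4%. GPX4 counts per ACSL4 count lay between 6.31 and 11.99 in VC and between 34.87 and 40.2 in VHL-KO samples, a ratio of a GC-rich and a GC-poor transcript.

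A wider list of 134 genes from the same pathways held 115 tested genes, of which 46 were higher, 37 were lower and 32 were not called, beside 28.5% higher and 31.2% lower of all tested genes. These counts moved with the scaling, to 36 higher and 52 lower for library size alone, against 50 and 31 for upper quartile factors. Their median log2 fold change was 0.03, against -0.01 for all tested genes, and 94 of them had groups without overlap, beside 64.7% of all tested genes. With the offsets, 38 of the 46 higher and 29 of the 37 lower calls were made again, and 1 call of each kind was made in the opposite direction. Among regulators and cofactors of NRF2, 6 of 12 were higher and 3 lower. CUL3, the ligase scaffold that works with KEAP1, fell by 0.94, and the small MAF partners MAFK and MAFF rose by 0.87 and 0.76, values that were -0.35, 0.53 and 0.42 with the offsets. Other enzymes and transporters linked to NRF2 had 10 higher and 5 lower of 23, or 10 and 9 with the offsets. The export pumps ABCC3 and ABCC4 had log2 fold changes of 1.62 and -1.43, and ME1, which makes NADPH from malate, had -1.20, or -0.63 with the offsets.

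Genes of glutathione uptake, transfer and breakdown had 10 higher and 8 lower of 25 tested, a balance that turned to 7 and 11 with the offsets. The largest called changes at a mean of at least 5 CPM were falls, in CHAC1 (-1.54) and GGCT (-1.07), which act in glutathione breakdown, and in GLRX5 (-0.85), a mitochondrial glutaredoxin of iron-sulfur cluster assembly. Of 11 other genes of the thioredoxin system, 6 were higher and 3 lower. TXNIP, which binds and inhibits thioredoxin, rose from a mean of 38.2 CPM to 183 CPM, a log2 fold change of 2.26. SOD3, the extracellular dismutase, had a log2 fold change of 1.37 and NNT, the mitochondrial transhydrogenase that makes NADPH, of -1.44, or 0.63 and -0.91 with the offsets.

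Among other iron genes, 8 were higher and 6 lower of 21 tested, with a median of 0.12, and with the offsets 12 were higher and 5 lower, with a median of 0.33. CP, which encodes the ferroxidase ceruloplasmin, had 10, 8 and 22 counts in VC samples and 336, 312 and 358 counts in VHL-KO samples, a log2 fold change of 5.21 (standard error 0.25). The iron regulatory protein gene IREB2 fell by 1.24 and the metal importer gene SLC39A8 fell by 0.94, and with the offsets their log2 fold changes were -0.65 and -0.53. Of 23 tested other genes of ferroptosis and lipid peroxidation, 6 were higher and 12 lower, with a median of -0.36. With the offsets the median was -0.15, the lower calls of ACSL1, CHMP5 and VKORC1L1 and the higher calls of POR and CHMP6 were not made, and SCD and MBOAT2 were called higher. DPP4 and SAT1, both described as promoters of ferroptosis, had log2 fold changes of 2.39 and 1.77, and ACSL3, which activates monounsaturated fatty acids, of -1.58, or -0.97 with the offsets. The 3 genes named from each role, 18 in all, were chosen as its largest called changes at a mean of at least 5 CPM. Separate groups, kept calls and small adjusted p-values follow in part from this choice and are no test. Each had groups without overlap and kept direction and call in each alternative that gave a value. For CP this leaves out the filter of 10 reads in every sample. CP reached that mean through its VHL-KO samples (14.6 CPM, against 0.38 CPM in VC samples). CHAC1 reached it through its VC samples (8.79 CPM, against 3.03 CPM in VHL-KO samples). Among these 18 the largest adjusted p was 1.11e-05 by the edgeR quasi-likelihood test with Benjamini-Hochberg adjustment, for SLC39A8 at a log2 fold change of -0.94.

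**Figure D5:**
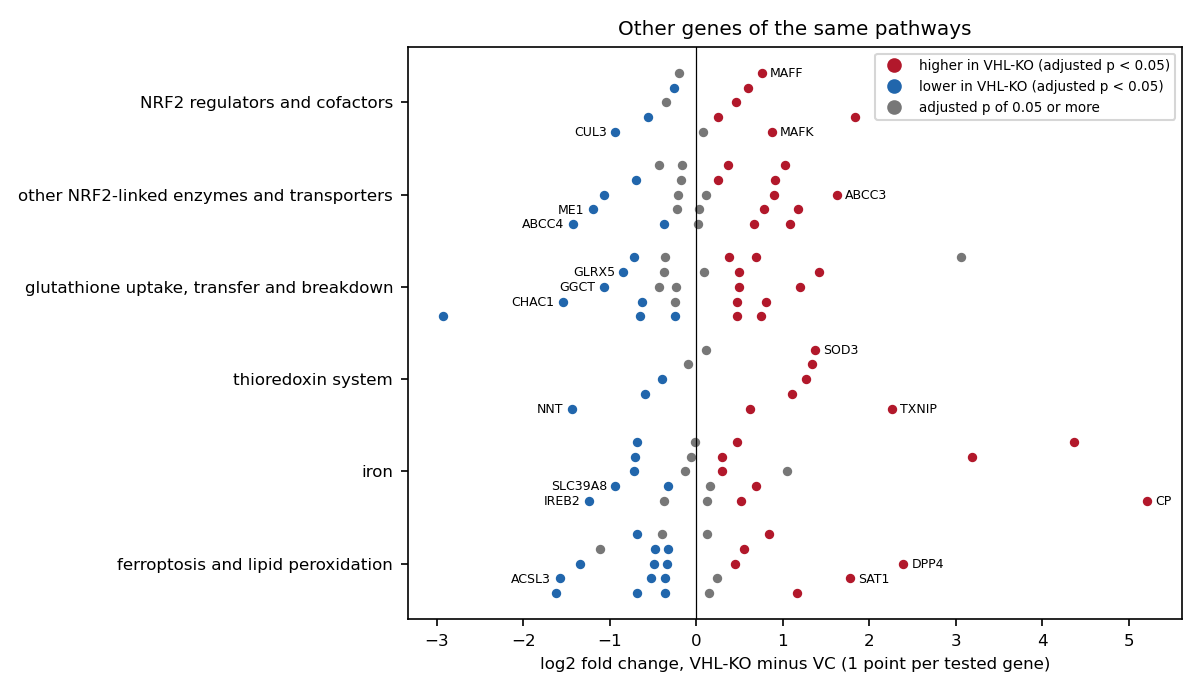
Log2 fold change (horizontal axis, VHL-KO minus VC) of the 115 tested genes of the wider list, 1 point per gene, by role. The genes named in the text carry their symbols, and CP lies farthest to the right at 5.21.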

How the data were processed

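RNA-seq of 3 VC and 3 VHL-KO samples was analysed from the raw counts per gene that the authors deposited. Per the labels, reads were trimmed with Trim Galore and cutadapt, aligned with STAR to GRCh38.p13, filtered with SAMtools and counted with HTSeq. Versions, annotation release, strandedness and counting mode are not given in the sources used here. Genes reaching 10 reads in 1 or more samples were tested with edgeR 4.0.16 in R 4.3.3 (TMM factors, quasi-likelihood F test). The p-values were adjusted by Benjamini-Hochberg over all tested genes, with a threshold of 0.05. Standard errors are the absolute log2 fold change divided by the square root of F. Alternatives were DESeq2 1.42.0, other factors and filters, each replicate left out, the replicate number as a block, and offsets for GC content and length (natural splines, 5 degrees of freedom, GENCODE release 44, with a model for 17361 tested genes). Chi-square per degree of freedom between replicates was 6.43 to 35.3. Figures were drawn with matplotlib 3.10.9. Values in every sample are given for NFE2L2, KEAP1, the gene of each role with the highest mean CPM and called genes changed at least 2-fold, and the 3 largest called changes at a mean of at least 5 CPM are named from each role of the wider list. The members and lists were chosen with earlier results of these data known.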

Additional observations from a re-analysis of the deposited data

How the results depend on the processing

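Of the values of the members under the alternatives, 510 kept direction and call, 24 changed sign, and of the others, which kept their sign, 12 gained a call and 23 lost one, and the cause was not tested. The median of the members lay near 0 and changed sign with small shifts: 0.025 with DESeq2, 0.025 with RLE factors, 0.11 with upper quartile factors, -0.19 with library size alone, 0.045 with at least 10 reads in every sample, 0.036 with GC and length offsets, 0.036 when these were joined to a replicate block, and -0.035 to 0.062 with 1 replicate left out. VHL was at -0.22 with upper quartile factors, -0.029 with the offsets, -0.034 with offsets and block, and -0.39 to -0.28 with 1 replicate left out. Changes of sign were few in called members, GPX8 (0.031 with offsets, 0.0295 with offsets and block) and TFRC (0.067 and 0.066). Among members not called, KEAP1 turned to -0.092 with library size alone, -0.24 with offsets and -0.24 with offsets and block, NQO1 to -0.18 with library size alone and -0.026 with no filter beyond 1 count, with -0.027 to 0.071 when 1 replicate was left out. PRDX1 turned to 0.084 with upper quartile factors and 0.0032 with the stricter filter, and SOD1 to 0.087 and 0.0067, with -0.0608 to 0.0529 when 1 replicate was left out. LPCAT3 turned to 0.012 with DESeq2, 0.012 with RLE factors, 0.098 with upper quartile factors and 0.018 with the stricter filter, with -0.052 to 0.057 when 1 replicate was left out. Of the markers, KRT18 turned to -0.11 with offsets and -0.11 with offsets and block, and VIM to 0.044 with upper quartile factors, with -0.0864 to 0.0083 when 1 replicate was left out. Same-numbered samples of the groups were correlated at 0.123, -0.064 and 0.057, so they were not taken as pairs, and a replicate block gave 10284 called genes, 17 members higher and 14 lower. With offsets, adding the block gave a call for SOD1 (-0.13) and for GCLM (-0.23). The GC and length offsets also remove biological change that follows these properties, and 3 samples a group from cells described as clonal do not separate the edit from other differences of a clone.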
